A study of Gallus gallus with 2 samples.

Results

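The 7 genes described here encode the Ras GTPases HRAS and NRAS, the exchange factors RASGRP3, RASGRP1, SOS1 and SOS2 that switch Ras on, and RASA1, which switches it off. They were found by their gene symbol in the array's platform annotation, which assigned them 21 of 38439 probe sets. The 7 belong to 13009 genes that the annotation names. They were listed with earlier results of these data in view, with RASGRP3 chosen by its large log2 ratio on these arrays, so all values below are descriptions without a test.

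Affymetrix arrays were used to measure expression in DT40, a chicken B-cell line derived from a bursal lymphoma. In H2A.Z-1 KO cells the gene of the histone variant H2A.Z-1 was lost and an H2A.Z-1 transgene was kept under a promoter that tetracycline represses. In H2A.Z-2 KO cells the gene of the sister variant H2A.Z-2 was disrupted for good. Both cultures grew in tetracycline at 2 µg/ml for 72 hours, so the drug itself is shared by the groups. One array was analysed per genotype and none of unmodified cells, so each ratio sets one knockout against the other and cannot say in which of them a gene departed from the parental level. The sources used here do not say whether each line is a single clone. Without replicate cultures there is no error between cultures, and a difference between lines cannot be told apart from a difference between these samples.

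Ras proteins are small GTPases at the inner face of membranes that signal while bound to GTP. Exchange factors load them with GTP, and GTPase-activating proteins speed its hydrolysis. In B cells the antigen receptor activates phospholipase C-gamma-2, whose product diacylglycerol recruits RasGRP proteins to the membrane, and protein kinase C phosphorylates RasGRP3. In DT40 cells RasGRP3 is known to couple phospholipase C-gamma-2 to Ras, whereas SOS proteins reach the membrane through the adaptor GRB2. GTP-bound Ras then engages the Raf, MEK and ERK kinases. No probe or gene sequence was used here.

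RASGRP3 was the 1 member past 2-fold between the arrays, and the rest of the group stayed within 2-fold. Both RASGRP3 probe sets were bright in the H2A.Z-1 KO sample and near background in the H2A.Z-2 KO sample. RASA1 came next, 1.54-fold to 1.67-fold higher in the H2A.Z-2 KO sample on each of 4 probe sets. HRAS and NRAS were nearly equal on both arrays. Signals below are linear MAS5 intensities, 1 per probe set, and log2 ratios are H2A.Z-1 KO over H2A.Z-2 KO. Signals under a floor of 98.2, the 60th percentile of all probe sets, were set to it, and folds that rest on it are given as "at least". Log2 ratios of probe sets or genes with a signal at the floor on 1 array are bounds too, and are marked so where they are first given. A gene's ratio is the mean over its probe sets above the floor on 1 array or more.

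**Figure D1:**
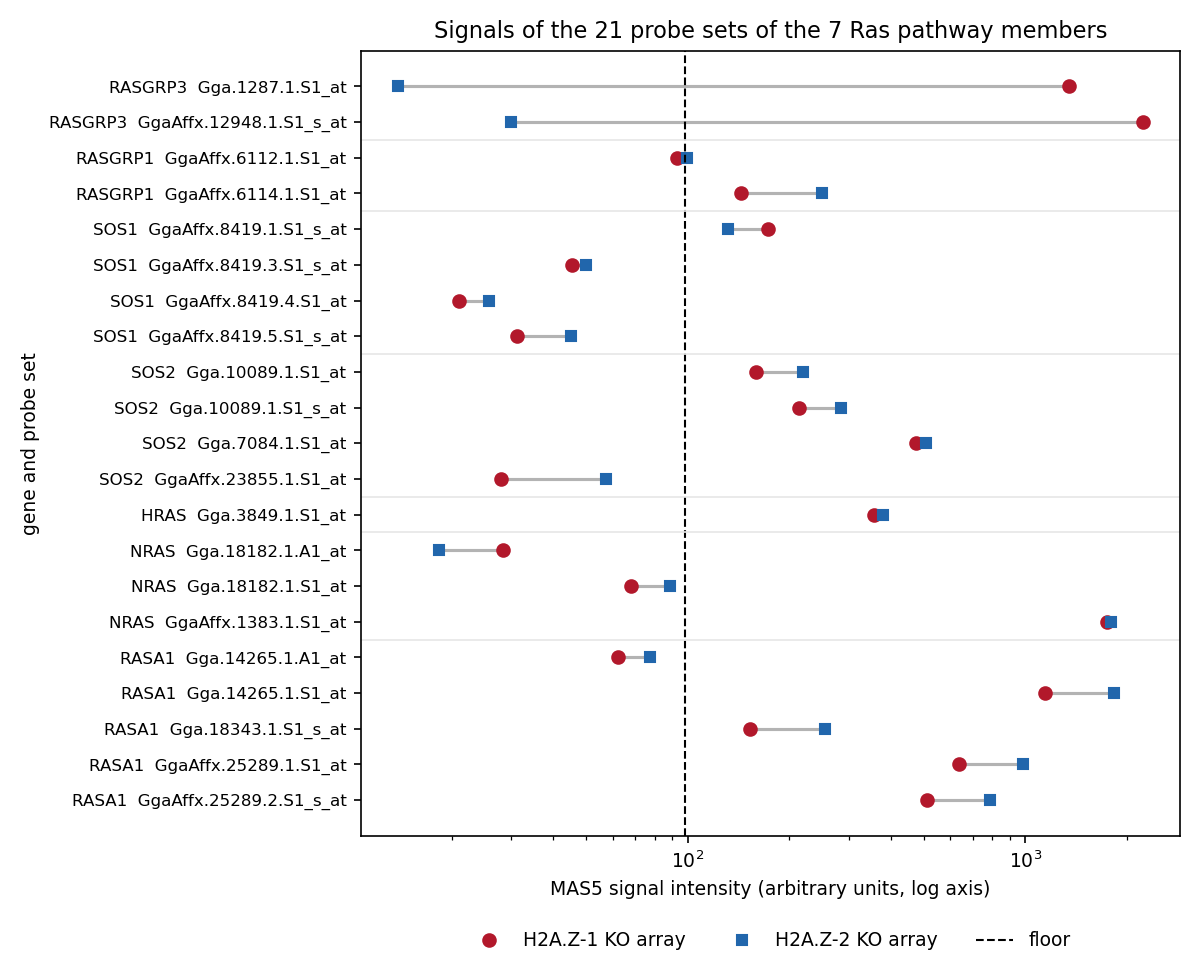
MAS5 signal (log axis, arbitrary units) of each of the 21 member probe sets in the H2A.Z-1 KO sample (circles) and the H2A.Z-2 KO sample (squares), with the floor of 98.2 as a dashed line. The 2 RASGRP3 probe sets span the floor, and the 4 brighter RASA1 probe sets are all displaced towards the H2A.Z-2 KO sample.

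The first exchange factor, RASGRP3 on chromosome 3, answers to diacylglycerol and acts on Ras and on the related Rap1. One probe set read 1344 in the H2A.Z-1 KO sample and 13.9 in the H2A.Z-2 KO sample. The other gave 2226 and 30.1. The H2A.Z-1 KO signals were thus high on both probe sets, and both H2A.Z-2 KO signals lay well under the floor. Against the floor the differences were at least 13.7-fold and at least 22.7-fold, log2 ratios of 3.78 and 4.50, with a gene mean of 4.14, all of them bounds. The plain quotients of the deposited signals were 96.7-fold and 74.0-fold, but their denominators are background-level signals with no reliable size. The suffix of the second probe set marks a possible match to several transcripts, while the first has no such mark. Among 7977 named genes above the floor RASGRP3 stood 8th from the top by its floored ratio.

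RASGRP1 on chromosome 5 is the relative of RASGRP3 that is best known from T-cell receptor signalling. One probe set gave 143.8 in the H2A.Z-1 KO sample and 249.4 in the H2A.Z-2 KO sample, a log2 ratio of -0.79. The other gave 93.0 and 99.6, close to the floor on both. The first was therefore lower in the H2A.Z-1 KO cells and the second too dim to show a difference, with a gene mean of -0.41 that is partly a bound. The paralogue did not show the difference seen for RASGRP3, and its ratio had the opposite sign. No probe set was named RASGRP2 or RASGRP4, which were not analysed here.

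SOS1 and SOS2 encode the exchange factors that GRB2 carries to activated receptors. For SOS2, on chromosome 5, the 3 probe sets above the floor gave 159.9 and 219.3, 213.7 and 284.2, and 476.2 and 509.4 in the H2A.Z-1 KO and the H2A.Z-2 KO sample. Every one of them was a little lower in the H2A.Z-1 KO cells, and the gene mean was -0.32. The fourth SOS2 probe set was under the floor, at 27.9 and 57.4. SOS1, on chromosome 3, was above the floor on only 1 of its 4 probe sets, with signals of 173.3 and 131.8 and a log2 ratio of 0.39. Its other 3 probe sets read from 21.0 to 50.0, and each was lower in the H2A.Z-1 KO sample. The SOS1 probe sets thus disagreed in sign: with all 4 and no floor the mean was -0.14, so no direction can be given for SOS1.

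Among the GTPases, HRAS on chromosome 5 was read by a single probe set, with signals of 356.9 in the H2A.Z-1 KO sample and 378.7 in the H2A.Z-2 KO sample and a log2 ratio of -0.09. NRAS, on chromosome 26, gave 1742 and 1796 on its bright probe set, a log2 ratio of -0.04. The other 2 NRAS probe sets were under the floor, at 68.0 and 89.0 and at 28.4 and 18.3. Neither GTPase differed by more than the SD of 0.36 between probe sets of 1 gene, the only spread these arrays offer. The sign for NRAS changed with median centring (0.01) and without a floor (0.06).

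RASA1, the p120 GTPase-activating protein that returns Ras to its GDP-bound state, lies on chromosome Z. The brightest of its 5 probe sets gave 1142 in the H2A.Z-1 KO sample and 1828 in the H2A.Z-2 KO sample. The next gave 635.4 and 987.9, another 511.8 and 786.6, and the dimmest above the floor 152.9 and 254.7. All 4 were higher in the H2A.Z-2 KO cells, with log2 ratios only from -0.74 to -0.62, a mean of -0.67 and an SD of 0.05 between probe sets. The remaining probe set, under the floor, read 62.2 and 77.6. RASA1 did not reach 2-fold; at least 1.5-fold higher in the H2A.Z-2 KO sample, as it was, were 11.6% of named genes. Leaving out any of the 4 probe sets kept its mean between -0.68 and -0.65. In a comparison chosen after these values were seen, 412 named genes had 4 or more probe sets over the floor. Of these, 9 or 2.18%, RASA1 included, had every such probe set at or under the least negative one of RASA1. Both limits were taken from RASA1 itself, so nothing is read from this share. Probe sets of a gene read the same 2 RNA samples, so their agreement says nothing of the spread between cultures.

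**Figure D2:**
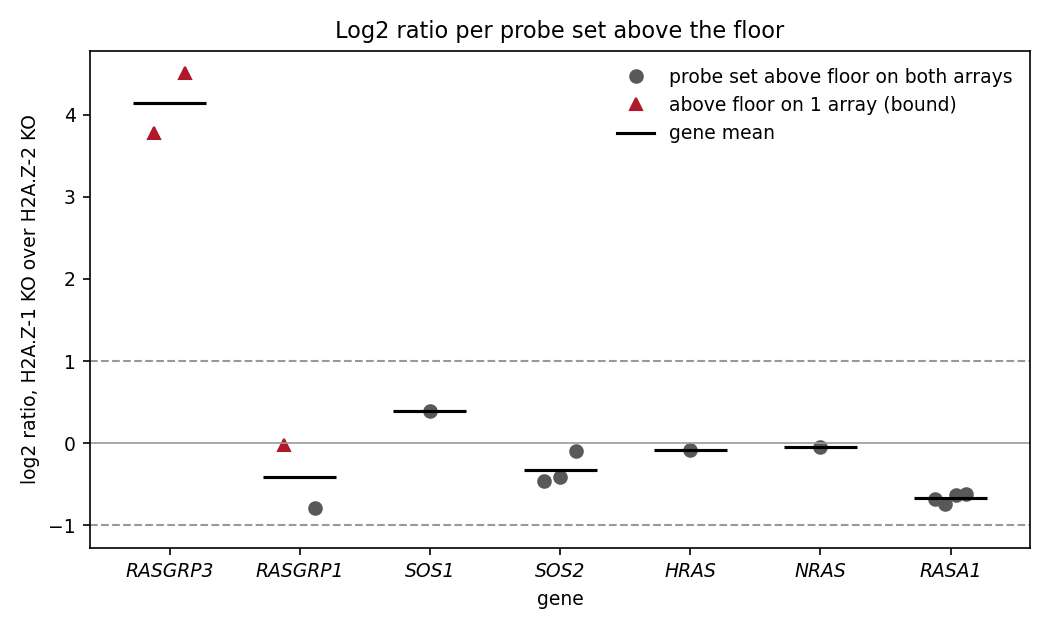
Log2 ratio (H2A.Z-1 KO over H2A.Z-2 KO) of each of the 14 member probe sets that exceeded the floor on 1 array or both, with the gene mean as a bar and 2-fold as dashed lines. Triangles mark probe sets that were under the floor on the other array, whose ratios are bounds. Only the RASGRP3 probe sets, at 3.78 and 4.50, lie outside the dashed lines, and the 4 RASA1 probe sets lie close together between -0.74 and -0.62.

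Counted by gene, 1 of the 7 members was at least 2-fold higher in the H2A.Z-1 KO sample and 0 in the H2A.Z-2 KO sample. Over all named genes above the floor these shares were 2.87% and 3.80%. The single member past 2-fold is the one the group was assembled around, so nothing is read from its count. The members' median log2 ratio was -0.09, beside -0.06 for all named genes. All 7 had a probe set above the floor, through 14 of the 21 probe sets, and the other 7 probe sets were under it on both arrays. Outside RASGRP3, 11 of 12 probe sets above the floor were lower in the H2A.Z-1 KO sample, with log2 ratios from -0.79 to 0.39, but 7 of the 11 belong to RASA1 and SOS2. Of all probe sets above the floor 55.7% were lower there.

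**Figure D3:**
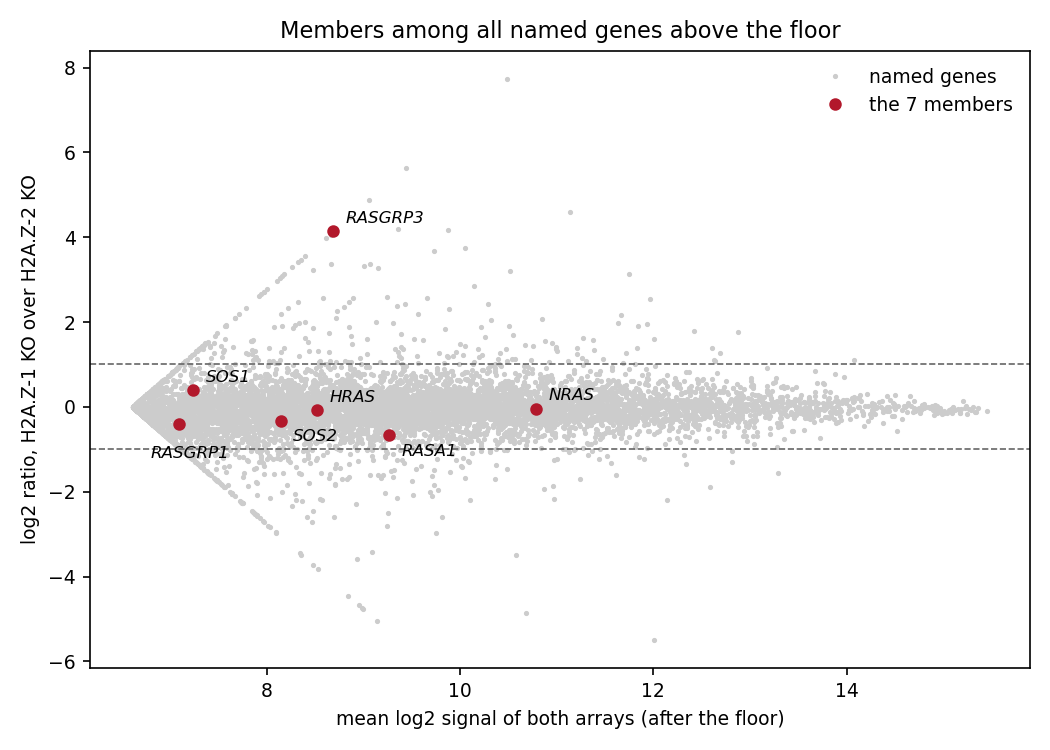
Log2 ratio (H2A.Z-1 KO over H2A.Z-2 KO) against mean log2 signal for 7977 named genes above the floor (grey) and the 7 members (red), with 2-fold as dashed lines. The slanted edges are formed by genes at the floor on 1 array, and RASGRP3 lies on the upper edge at 4.14 while the other members lie inside the main band.

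With 2 arrays a gene's pattern is only its level and its ratio. By distance in the plane of mean log2 signal and log2 ratio, among 242 other named genes that were at the floor in the H2A.Z-2 KO sample, the 5 closest to RASGRP3 were CD1C, VAT1, SFRP2, DOK7 and NEUROD6. Because RASGRP3 and all these genes share the floor value in that sample, the ranking follows the H2A.Z-1 KO signal alone. Their signals in the H2A.Z-1 KO sample were 1558 for the lipid-presenting molecule CD1C, 2190 for VAT1, 1163 for the Wnt antagonist SFRP2, 1090 for the adaptor gene DOK7 and 1050 for the transcription factor gene NEUROD6. Each rested on 1 probe set above the floor, whereas RASGRP3 had 2. CD1C, SFRP2 and NEUROD6 had only 1 named probe set. VAT1 and DOK7 had 2, and the other probe set of each was under the floor on both arrays.

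Genes beside RASGRP3 on the chromosome did not show its difference. Of its 10 nearest protein-coding neighbours in the RefSeq gene order of GRCg7b, 5 on each side, 8 had a probe set above the floor, with log2 ratios from -0.33 for YIPF4 to 0.62 for BIRC6. The adjacent genes were FAM98A at 0.44, with signals of 3561 and 2619, and LTBP1 at 0.25, a bound, which was at the floor in the H2A.Z-2 KO sample. Of the 10 neighbours of RASA1 chosen in the same way, only CCNH at -0.08 and COX7C at 0.02 were measured. The others had no probe set, so little can be said of the surroundings of RASA1. The median log2 ratio was -0.04 over 634 genes of chromosome 3 and -0.11 over 345 genes of chromosome Z, both far from the values of RASGRP3 and RASA1.

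The arrays were also checked against their labels. H2AFZ, the gene of H2A.Z-1, gave 614.6 in the H2A.Z-1 KO sample and 27642 in the H2A.Z-2 KO sample, and H2AZ2 gave 20911 and 42.1, each low where its label calls for it. The 10 B-cell markers with a named probe set were all above the floor, 4 of them at least 2-fold higher in the H2A.Z-1 KO sample, beside 2.87% of all named genes, and 0 in the other. These 4, in the same direction as RASGRP3, were the receptor chain gene CD79B (8.76-fold), BTK (2.61-fold), CD74 (3.73-fold) and CD72 (4.19-fold). The other B-cell markers stayed within 2-fold, and of these only SYK, at a log2 ratio of 0.37, was higher in the H2A.Z-1 KO sample. PAX5 at -0.68, IRF4 at -0.25 and PTPRC at -0.17 went the other way. So did LYN at -0.58 and IGLL1 at -0.38, both partly bounds. The signals summed over all probe sets of the 10 were 179638 and 181494. Bright genes with many probe sets, such as IGLL1 with 8, weigh most in these sums. The near-equal totals therefore do not show that the single markers were alike. Of T-cell markers, CD3E, CD4, CD28, LCK and ZAP70 were under the floor on both arrays, CD8A was under it in the H2A.Z-1 KO sample and at 157.4 in the other, and the probe set named CD3D read 9211 and 7509. Whether that probe set is named correctly could not be checked. None of the 3 myeloid markers and not the 1 erythroid marker with probe sets was above the floor, and of 5 fibroblast markers COL1A1 and COL1A2 were, at mean signals of at most 176.2. Whether these marker signals bear on the values of the members was not tested. Fewer cells expressing a gene and less RNA per cell cannot be told apart in such bulk samples.

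The pathway around the members was described with 124 further genes in 9 lists by role, written from general knowledge but with earlier results of these data known. Of these 73 were above the floor, 19 were under it on both arrays and 32 had no probe set of that name. At least 2-fold higher were 5 genes in the H2A.Z-1 KO sample and 7 in the H2A.Z-2 KO sample, 16.4% in all, beside 6.67% of all named genes. At 3-fold the shares were 2.74% and 2.53%, and at 2-fold without a floor 27.2% and 22.1%, so the gap depends on the threshold and the floor, and nothing is read from it. Their median log2 ratio of -0.08 was close to the -0.06 of all named genes. The genes past 2-fold thus went both ways, and most lists held 1 or none. List genes named below that are neither past 2-fold nor the highest or lowest of their list were chosen after their values were seen.

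**Figure D4:**
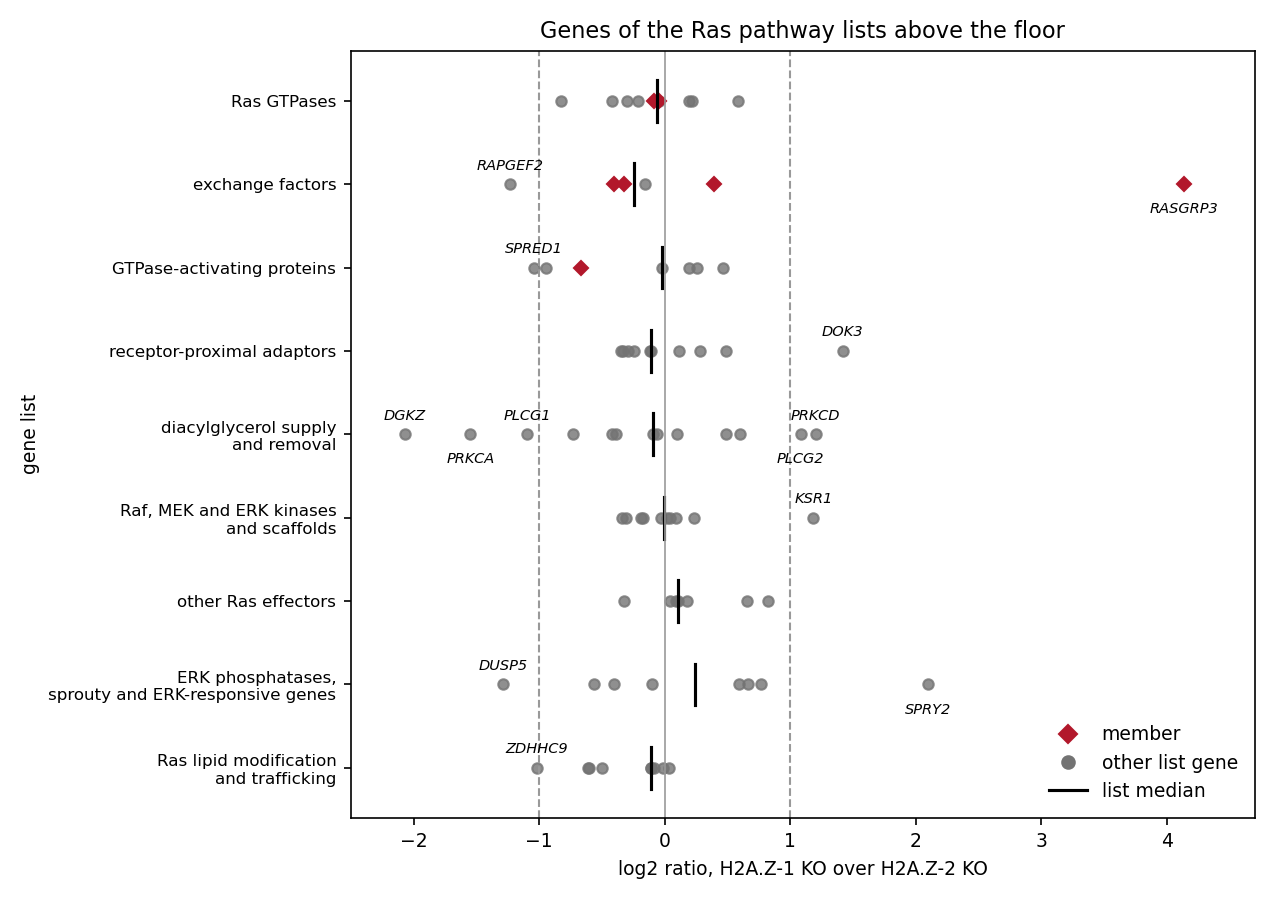
Log2 ratio (H2A.Z-1 KO over H2A.Z-2 KO) of every gene above the floor in 9 lists of Ras pathway roles; red diamonds are members, grey circles other genes, black bars the list medians and dashed lines 2-fold. Genes past 2-fold are named, 5 of 13 standing in the diacylglycerol list, where they lie on both sides.

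The list of diacylglycerol supply and removal, the step that controls RasGRP proteins, held 5 of the 12. Of its 13 measured genes, 2 were higher in the H2A.Z-1 KO cells. PLCG2, the phospholipase downstream of the B-cell receptor, was above the floor on 6 probe sets, with signals from 2108 to 5685 in the H2A.Z-1 KO sample and from 1093 to 3101 in the H2A.Z-2 KO sample. All 6 were higher in the H2A.Z-1 KO cells, at log2 ratios from 0.52 to 2.18, a mean of 1.08. That mean falls to 0.86, or 1.82-fold, without the probe set at 2.18, so its place past 2-fold rests on 1 probe set while its direction does not. PRKCD, a protein kinase C that diacylglycerol activates, gave 1413 and 613.5 on its only probe set, a log2 ratio of 1.20.

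A further 3 genes of this list were higher in the H2A.Z-2 KO cells. DGKZ, the diacylglycerol kinase that removes this lipid and is known to limit RasGRP1 signalling in mammalian T cells, gave 357.6 in the H2A.Z-1 KO sample and 1501 in the H2A.Z-2 KO sample. That is a log2 ratio of -2.07 on its bright probe set, and the other 3 DGKZ probe sets were under the floor on both arrays and near-equal, from -0.38 to -0.11, so that the mean without a floor was -0.66. PRKCA, another diacylglycerol-dependent kinase, gave 168.3 and 492.3, a log2 ratio of -1.55 on 1 of 7 probe sets that became -0.47 with the floor at the 40th percentile. PLCG1, the phospholipase that prevails in T cells, was at least 2.14-fold higher, on 2 probe sets whose suffix marks matches to several transcripts. Against the floor only 1 of the 2 passed 2-fold, the other being at -0.54, and both ratios are bounds. Their plain log2 ratios were -2.39 and -2.31, with H2A.Z-1 KO signals of 58.5 and 28.8 under the floor. With the 3 PLCG1 probe sets under the floor on both arrays, the gene's log2 ratio of -1.10 became -0.62 without a floor. PRKCB, the main classical protein kinase C of B cells, stood at 0.49 over 4 probe sets, under 2-fold.

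Among other exchange factors, RAPGEF2, which acts on Rap1 and not mainly on Ras, gave 567.6 and 1336, a log2 ratio of -1.23 on 1 of 4 probe sets that moved to -0.09 without a floor, and RAPGEF1 stood at -0.16. Of the genes listed with the GTPase-activating proteins, SPRED1 was at least 2.06-fold higher in the H2A.Z-2 KO sample on 1 of 3 probe sets. That probe set gave 201.9 there against a signal under the floor, and the gene was just under 2-fold with median centring (-0.99). The other SPRED1 probe sets were under the floor on both arrays. They read 9.07 and 6.13 in the H2A.Z-1 KO sample and 7.70 and 74.3 in the H2A.Z-2 KO sample. SPRED1 has no such activity of its own and is known to bring neurofibromin to the membrane. Neurofibromin's gene NF1 stood at 0.19, partly a bound, over 5 probe sets and RASA2 at 0.26, while RASA3 had -0.95 on 1 probe set. RASAL1, with 135.6 against a signal under the floor, had the highest value at 0.47, a bound. RASA1 and RASA3 were each at least 1.5-fold higher in the H2A.Z-2 KO sample, as were 11.6% of named genes. Neither of these 2 genes passed 2-fold at this floor. The remaining RASA3 probe sets were under the floor on both arrays. They read 16.5 in the H2A.Z-1 KO sample and 95.6 in the H2A.Z-2 KO sample, and 3.49 and 20.9, so a larger difference is possible for RASA3.

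No floored ratio of the 8 other Ras-family GTPases passed 2-fold. RAP2A, a Rap protein, was at least 1.77-fold higher in the H2A.Z-2 KO sample, with 83.9 under the floor against 174.1, so a larger difference is possible. The highest was RAP1A at 0.58, the mean of 2 probe sets above the floor. In the H2A.Z-1 KO and the H2A.Z-2 KO sample they gave 246.4 and 169.6, and 13102 and 8468. Of 10 measured receptor-proximal adaptors and phosphatases only DOK3 passed 2-fold, with 3321 in the H2A.Z-1 KO sample and 1244 in the H2A.Z-2 KO sample and a log2 ratio of 1.42. DOK3 is an adaptor that restrains B-cell receptor signalling. GRB2, the carrier of SOS proteins, stood at -0.11 over 3 probe sets with signals of 4136 to 7165, and SHC1 had the lowest value at -0.35, a bound.

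Downstream of Ras most kinase genes were near-equal. Of 10 measured kinases and scaffolds only KSR1, a scaffold for Raf and MEK, passed 2-fold. It was at least 2.27-fold higher in the H2A.Z-1 KO sample over 3 probe sets, with signals of 128.5 to 360.5 against values under the floor. Without its highest probe set the gene stood at 0.84, or at least 1.79-fold. That value is still a bound, so a larger difference is possible. Another 4 KSR1 probe sets were under the floor on both arrays. The lowest of this list was BRAF at -0.34, partly a bound, its 2 probe sets at -0.88 and 0.20. Other Ras effectors had 0 of 7 past 2-fold, from PIK3CA, a catalytic subunit of phosphoinositide 3-kinase, at -0.32 to RASSF2 at 0.82, partly a bound.

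Genes listed for dampening or reporting ERK activity went both ways. Whether they, MYC included, report ERK activity in these cells was not tested. SPRY2, a sprouty protein that is induced by ERK signalling and restrains it, gave 872.0 in the H2A.Z-1 KO sample and 204.3 in the H2A.Z-2 KO sample, a log2 ratio of 2.09 on its 1 probe set, or 0.62 with the floor at the 80th percentile. DUSP5, a nuclear phosphatase of ERK, gave 115.0 and 281.2, a log2 ratio of -1.29. The ERK-responsive ETV5 stood at 0.77, partly a bound, over 3 probe sets, and the phosphatase genes DUSP4 and DUSP10 at 0.59 and 0.66. In the other direction, ETV4 stood at -0.40, a bound, with 12.5 under the floor in the H2A.Z-1 KO sample against 129.8. The phosphatase gene DUSP1 stood at -0.10. MYC, with signals of 19322 and 28614, stood at -0.57. The list's median was 0.24 over 8 genes. A further 8, among them EGR1, FOS, SPRY1, SPRY4 and DUSP6, were under the floor on all their 14 probe sets, with no signal above 66.3.

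Of the 9 measured genes for the lipid anchors and trafficking of Ras, ZDHHC9 passed 2-fold. ZDHHC9 with its partner GOLGA7 forms the enzyme that palmitoylates HRAS and NRAS. Its 2 probe sets gave 650.0 and 1270 and 1571 and 3295 in the H2A.Z-1 KO and the H2A.Z-2 KO sample, a mean log2 ratio of -1.02. Its distance past 2-fold was so small that median centring took it to -0.96. GOLGA7 itself stood at -0.08, the farnesyltransferase subunit genes FNTA and FNTB at -0.11 and -0.61, and LYPLA1, a depalmitoylating enzyme, was highest at 0.03.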

How the data were processed

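Total RNA of 1 culture per genotype, H2A.Z-1 KO or H2A.Z-2 KO, was biotin-labelled and hybridised to an Affymetrix chicken array, per the labels' protocols. The deposited intensity values are linear signals from MAS5, named in the submitters' processing notes, with its settings not given in the sources used here. Trimmed means (2%) of the deposited values, 500.2 and 500.1, show scaling to a common target, so an overall change in RNA content would not show. No detection calls were used.

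The 96 control probe sets were left out. Gene symbols came from the platform annotation: 27168 probe sets had 1 symbol, 177 several and 11094 none. Gene identifiers of 26853 were found in a RefSeq table of GRCg7b, used for chromosomes and gene order. The floor was the 60th percentile and the threshold 2-fold. The SD between probe sets of 1 gene, pooled over 3588 genes, was 0.36 on the log2 scale. Calculations used Python 3.11.15, pandas 2.3.3 and statsmodels 0.14.6. Recovery of planted changes was tested on simulated data, only for probe sets with mean signals well above the floor. Recovery of changes at the floor and of gene means was not tested. With 1 array per genotype no test was possible. The number of arrays limits the precision.

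The members, lists and markers were chosen with earlier results of these data known. The genes named by rule were all members, every list gene past 2-fold, the most distant gene of the remaining lists or directions, the knocked-out genes and the 5 genes closest to RASGRP3 in level and ratio. Other list genes were named after their values were seen. That ranking left out locus, clone and open reading frame names. Alternatives were a floor at the 40th or the 80th percentile, a pseudocount of 1 in place of a floor, median centring, quantile normalization, lowess (fraction 0.3, 3 iterations), exclusion of probe sets that may match several transcripts, use of the brightest probe set alone, updated symbols, and thresholds of 1.5-fold and 3-fold. Ratios of all probe sets with no floor or pseudocount were added after seeing the data.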

Additional observations from a re-analysis of the deposited data

How the results depend on the processing

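RASGRP3 was past 2-fold in the H2A.Z-1 KO sample under all 10 alternatives tried, and its log2 ratio of 4.14 followed the floor: 5.52 with the floor at the 40th percentile, 1.61 at the 80th, 6.33 with no floor and a pseudocount of 1, and 6.40 with neither, an alternative chosen after seeing the data. It was 3.78 without probe sets that may match several transcripts and 4.50 on the brightest probe set. RASA1 stayed between -0.68 and -0.60. SOS1 went from 0.39 to 0.00080 at the 40th percentile, -0.13 with no floor and a pseudocount, and -0.14 with neither, because dimmer probe sets enter. It had no value at the 80th percentile or without probe sets that may match several transcripts. RASGRP1 was -0.79 on its brightest probe set. SOS2 and HRAS kept their sign in all 9 alternatives that measured them. At 1.5-fold, 1 member (RASA1) was higher in the H2A.Z-2 KO sample. The other pathway genes past the threshold, 5 and 7, became 11 and 14 with no floor, 11 and 12 at 1.5-fold, and 1 and 1 at 3-fold. As shares these are 27.2%, 31.5% and 2.74%, beside 22.1%, 19.2% and 2.53% of all named genes. Those higher in the H2A.Z-2 KO sample numbered 3 at a floor of the 80th percentile and 4 without probe sets that may match several transcripts. Their median ran from -0.13 to 0.001. Of the named pathway genes, DGKZ moved to -0.66, PRKCA to -0.47, RAPGEF2 to -0.09, PLCG1 to -0.62 and SPRY2 to 0.62 under the floor setting that lowered each most. Without a floor SPRED1 moved to -3.41 and DUSP5 to -2.65. SPRED1 was -0.82 with the brightness trend removed, and KSR1 was 1.88, a bound, on its brightest probe set. All 12 kept their sign wherever they were measured. No paired analysis was possible because each genotype has 1 array.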
